A study of Homo sapiens with 12 samples.

Results

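The genes described here encode 10 enzymes that trim and extend N-glycans: MAN1A1, MAN1A2, MAN1B1 and MAN1C1 of the class I α-mannosidases, MAN2A1 and MAN2A2 of the class II α-mannosidases, and the transferases MGAT1, MGAT2, MGAT5 and FUT8. They were taken by symbol from an expression table of 29696 genes, in which all 10 are listed, together with their m6A peaks. MAN1A1 was selected on its measured values in this contrast, a listing in the authors' table of differential m6A peaks together with lower expression after ALKBH5 knockdown. Its values are therefore given as a description with no test, and the other 9 genes were added as the enzymes of the same trimming and branching route.

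The study asked which transcripts respond to loss of ALKBH5, an enzyme that removes the methyl mark m6A (N6-methyladenosine) from RNA, in A375 cells, an established human melanoma line. One group carried a lentiviral hairpin against ALKBH5 (shALKBH5) and the other a control hairpin (shCtrl), both in A375 cells with no other genetic change given. The paper's methods give a harvest 48 h after infection for RNA-Seq, and no time is given for the IP libraries. The methods do not say which ALKBH5 hairpin was sequenced, and whether it was 1 or several is not given in the sources used here. Each group had 3 input libraries of poly(A) RNA and 3 libraries after immunoprecipitation with an m6A antibody (IP). The paper says in general terms that experiments were done 3 times independently, but neither it nor the labels say so of these libraries, so p-values measure only the spread between these libraries, which may be technical.

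Proteins entering the endoplasmic reticulum (ER) receive a preformed glycan rich in mannose. Class I mannosidases in the ER (MAN1B1) and Golgi (MAN1A1, MAN1A2, MAN1C1) remove mannose from it, MGAT1 then starts the first branch, class II mannosidases take off further mannose, and MGAT2 starts the next branch. MGAT5 adds the β1,6 branch that has long been studied in invasive tumour cells, and FUT8 adds the core fucose.

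Expression is given as FPKM, fragments per kilobase of transcript scaled to the size of the library, so that levels of different genes can be compared. ALKBH5 itself was at 3.39, 3.92 and 3.12 FPKM in the shALKBH5 libraries and at 19.3, 17.8 and 17.6 FPKM in the shCtrl libraries. It fell by 2.36 ± 0.09 on the log2 scale (SE; limma adjusted p = 1.28e-06), and the groups did not overlap. The melanocyte-lineage factor SOX10 was at 179 to 192 FPKM in all 6 input libraries, and S100B, another gene of the lineage, went from 32.9 FPKM in shCtrl to 82.1 FPKM in shALKBH5 cells without overlap. MITF averaged 0.777 FPKM in shCtrl and 1.26 FPKM in shALKBH5 cells, and the pigment genes TYR, DCT, TYRP1 and PMEL stayed under 1 FPKM. Summed markers of blood and immune cells reached 0.211 FPKM at most and those of endothelial cells 0.388 FPKM. Of the keratinocyte markers, KRT10 averaged 8.17 FPKM in shCtrl and 10.8 FPKM in shALKBH5 cells, and KRT14 0.961 and 0.369 FPKM. KRT5 and KRT1 were not listed. Input libraries of the same group correlated at 0.981 to 0.984 and libraries of different groups at 0.929 to 0.934, across genes on the log2 scale.

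MAN1A1, selected for lower expression, was the trimming gene that differed most between the groups on the log2 scale. Its level was 0.0668, 0.0669 and 0.0999 FPKM in the shALKBH5 libraries and 0.958, 1.32 and 1.01 FPKM in the shCtrl libraries. All shALKBH5 libraries lay below all shCtrl libraries, and the shALKBH5 mean, 0.0779 ± 0.0191 FPKM, was 7.09% of the shCtrl mean, 1.10 ± 0.20 FPKM (SD, n = 3). The difference was −2.74 on the scale of log2(FPKM + 0.1), which understates changes of genes as low as this one, and 20 of 12985 tested genes were lower still on that scale. MAN1A1 passed the expression filter, a mean of 0.5 FPKM over the 6 input libraries, only through its shCtrl values. In bulk RNA, fewer cells expressing a gene and less RNA per cell cannot be told apart, here and for the genes that follow.

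The other Golgi class I genes were also lower. MAN1A2, a Golgi mannosidase gene of the same subfamily as MAN1A1, was at 1.05, 0.878 and 0.985 FPKM in the shALKBH5 libraries and 2.44, 2.68 and 2.23 FPKM in the shCtrl libraries. Its groups did not overlap, and it fell by 1.25 ± 0.11 (log2, SE; limma adjusted p = 6.09e-05) to 39.7% of the shCtrl mean. With a pseudocount of 1 the decrease was 0.81 (limma adjusted p = 6.10e-05). MAN1C1 was the least expressed of the 10 genes. It was at 0.0211, 0.0245 and 0.0284 FPKM against 0.243, 0.285 and 0.277 FPKM in shCtrl cells, again with no overlap. With a mean of 0.146 FPKM it was below the filter and was not tested, and its shALKBH5 mean was 9.19% of its shCtrl mean.

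MAN1B1, the ER member of the class, was more abundant and differed less. Its level was 8.02, 7.16 and 7.57 FPKM in shALKBH5 cells and 11.5, 10.6 and 11.0 FPKM in shCtrl cells. It fell by 0.53 ± 0.06 (log2, SE; limma adjusted p = 0.000208), with every shALKBH5 library under every shCtrl library. Summed over the 3 Golgi genes, the level was 1.07 ± 0.09 FPKM in shALKBH5 cells and 3.82 ± 0.42 FPKM in shCtrl cells (SD, n = 3). Golgi genes thereby made up 12.4% ± 0.4 of the class I level in shALKBH5 cells and 25.7% ± 2.7 in shCtrl cells (SD, n = 3), values that contain MAN1A1 and are given as a description. Within the Golgi pair, MAN1A2 stood at 2.26 times the level of MAN1A1 in shCtrl cells and at 12.9 times in shALKBH5 cells, as the mean of the ratios in 3 libraries.

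**Figure D1:**
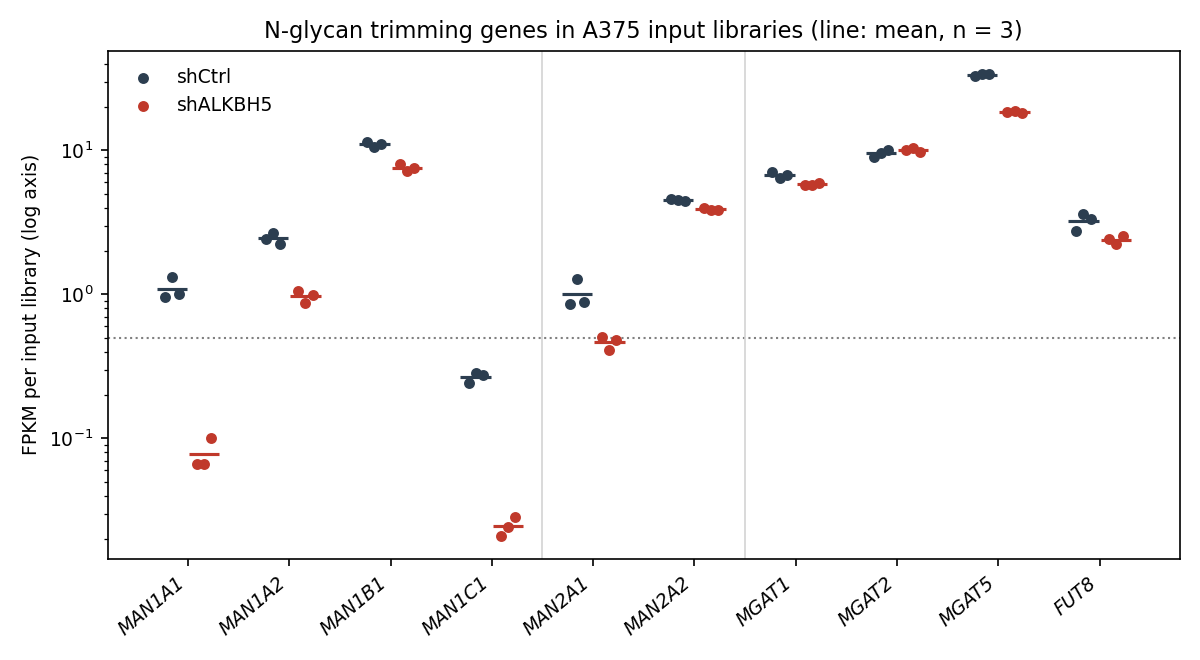
FPKM of the 10 trimming genes in each input library on a log axis, with points for the 3 libraries of shCtrl (dark) and shALKBH5 (red), bars for group means and a dotted line at the filter of 0.5 FPKM. Of the 7 genes with both means above the line, 6 are apart with shALKBH5 lower, beside 29.0% of all tested genes, and MGAT2 overlaps.

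Of the class II genes, MAN2A2 fell, and MAN2A1 was lower by more but is described without a test. MAN2A1, which cuts mannose after MGAT1 has acted, was at 0.506, 0.412 and 0.481 FPKM in the shALKBH5 libraries and 0.863, 1.28 and 0.890 FPKM in the shCtrl libraries. Its groups did not overlap and the difference was −0.96 on the log2 scale (−0.45 with a pseudocount of 1). Like MAN1A1 it passed the filter only through its shCtrl values, since its shALKBH5 mean was 0.466 FPKM, so no test is given. MAN2A2, which shares this activity, was at 3.96, 3.85 and 3.85 FPKM against 4.61, 4.54 and 4.42 FPKM. Its groups were apart but close, with a decrease of 0.21 ± 0.06 (log2, SE; limma adjusted p = 0.0127). MAN2A1 gave 10.7% ± 0.9 of the class II level in shALKBH5 cells and 18.2% ± 3.4 in shCtrl cells (SD, n = 3), also as a description.

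Among the transferases, MGAT5 fell most and MGAT2 was not called. MGAT5 was the most abundant of the 10 genes in both groups, at 18.5, 18.8 and 18.1 FPKM in shALKBH5 cells and 32.7, 33.6 and 34.0 FPKM in shCtrl cells. It fell by 0.85 ± 0.04 (log2, SE; limma adjusted p = 2.96e-06), to 55.3% of its shCtrl mean. MGAT2 was at 9.99, 10.4 and 9.80 FPKM against 9.04, 9.61 and 10.1 FPKM, and its groups overlapped. Its difference was 0.07 ± 0.06 (log2, SE), with a 95% interval of −0.06 to 0.20 and a limma adjusted p of 0.305. The level of MGAT5 relative to MGAT2 was 1.84 ± 0.02 in shALKBH5 cells and 3.50 ± 0.12 in shCtrl cells (SD, n = 3; exact permutation p = 0.1, two-sided, the smallest that 3 against 3 libraries allow).

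MGAT1 and FUT8 fell by smaller amounts. MGAT1, whose product opens the way to all complex glycans, was at 5.77, 5.76 and 5.89 FPKM in shALKBH5 cells and 7.06, 6.40 and 6.71 FPKM in shCtrl cells. Its groups were apart by a decrease of 0.21 ± 0.06 (log2, SE; limma adjusted p = 0.0152), and the adjusted p became 0.0540 without shALKBH5 replicate 1 and 0.0519 without shALKBH5 replicate 2. FUT8 was at 2.43, 2.25 and 2.54 FPKM against 2.75, 3.61 and 3.31 FPKM, a decrease of 0.40 ± 0.11 (log2, SE; limma adjusted p = 0.0155). Its groups did not overlap, but the adjusted p was 0.0540 without shALKBH5 replicate 2 and 0.0517 without shCtrl replicate 3.

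In 7 of the 10 genes both group means reached the filter. Of these 7, 6 were called lower, 0 were called higher and 1, MGAT2, was not called in either direction by limma at an adjusted p of 0.05. The count called higher was also 0 at an unadjusted p of 0.05. Of all 12985 tested genes, 26.2% were called lower and 34.7% higher, or 61.0% in either direction, so calls were common in this comparison. Unlike the 7, all tested genes include those that passed the filter through 1 group only. Every shALKBH5 library lay below every shCtrl library for 6 of the 7 genes, beside 29.0% of all tested genes. The reverse held for 0 of the 7 and for 38.0% of all tested genes. The genes kept a similar order of levels. In shCtrl cells it ran from MGAT5 through MAN1B1, MGAT2, MGAT1, MAN2A2, FUT8 and MAN1A2 to MAN1A1, MAN2A1 and MAN1C1, and only the neighbours MAN1A1 and MAN2A1 overlapped between libraries. In shALKBH5 cells MGAT2 stood above MAN1B1 and MAN2A1 above MAN1A1, and no neighbours overlapped.

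**Figure D2:**
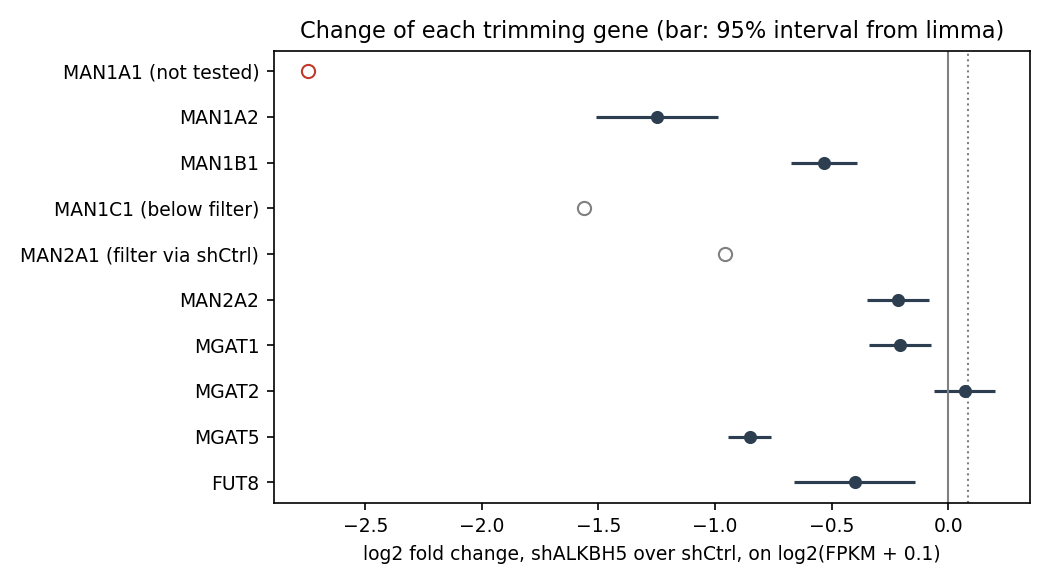
Log2 fold change of each gene in shALKBH5 over shCtrl input libraries on log2(FPKM + 0.1), with 95% limma intervals for 7 genes, open circles for MAN1A1 and MAN2A1 (past the filter only through shCtrl) and MAN1C1 (below it), and a dotted line at the median of all tested genes, 0.09. MGAT2 is the one gene of the 7 whose interval, −0.06 to 0.20, spans 0.

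Genes whose pattern over the 6 input libraries was among those most like that of MAN1A1 were PIM1, NMU, ATAD2 and TNFRSF21. Likeness was the root mean square difference of centred log2(FPKM + 0.1) values, which was 0.101 for PIM1 and 0.181 for TNFRSF21. PIM1, a serine/threonine kinase gene, went from 5.13 ± 0.53 FPKM in shCtrl cells to 0.752 ± 0.052 FPKM in shALKBH5 cells (SD, n = 3). TNFRSF21, which encodes death receptor 6, went from 54.7 ± 0.6 to 9.52 ± 0.64 FPKM. Among the tested trimming genes, which leaves out MAN1C1, the nearest was MAN1A2, at rank 490 of 12984 with a difference of 0.760. These genes were picked for the likeness, so their values describe it and are not tested.

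The remaining N-glycan pathway was read from 8 lists that hold 111 genes, of which 110 are in the table and 101 were tested. Of these, 41 were called higher, 28 lower and 32 were not called, or 40.6% higher and 27.7% lower, beside 34.7% and 26.2% of all tested genes. Rescaling the libraries by median ratios turned the split to 28 higher and 34 lower, and that of all tested genes to 3788 higher and 3898 lower of 12985. The median log2 fold change of the listed genes was 0.12 and that of all tested genes 0.09.

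Genes of precursor assembly and sugar supply were more often called higher than lower, as were all tested genes (34.7% higher and 26.2% lower). After rescaling, 3788 of all 12985 tested genes were called higher and 3898 lower. Of 23 tested genes that assemble the lipid-linked precursor, 14 were called higher and 1 lower, with a median of 0.23 (10 higher and 1 lower after rescaling). DHDDS, which makes dolichol, rose from 4.38 ± 0.31 to 10.9 ± 0.4 FPKM (SD, n = 3; log2 1.29, limma adjusted p = 4.50e-06). DPM3, a subunit of dolichol-phosphate mannose synthase, rose by 1.01 and the mannosyltransferase gene ALG3 by 0.89 on the log2 scale, whereas DOLPP1, which recycles the lipid carrier, fell by 0.53. Of 22 genes that supply nucleotide sugars, 13 were called higher and 5 lower, with a median of 0.27 (11 higher and 7 lower after rescaling). SLC35A2, the UDP-galactose transporter, rose from 12.5 ± 0.6 to 27.4 ± 1.4 FPKM (SD, n = 3; log2 1.13, limma adjusted p = 4.73e-06). PMM2, which makes mannose-1-phosphate, rose by 0.85 and the sialic acid phosphatase gene NANP by 0.84. In the same list the hexosamine genes GNPNAT1 and GFPT1 fell by 1.35 and 0.52, and GNE, the first enzyme of sialic acid synthesis, fell by 0.79.

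Lists closer to the trimming step were mixed, beside 34.7% called higher and 26.2% called lower among all tested genes. Of 12 genes of the oligosaccharyltransferase, which moves the glycan onto protein, 2 were called higher (DAD1, log2 0.47, and OST4, 0.17) and 4 lower, among them OSTC at −0.56, the catalytic subunit gene STT3B at −0.45 and RPN2 at −0.43. Of 16 genes for ER glucosidases, folding and sorting, 5 were called higher and 7 lower. MOGS, which encodes glucosidase I, rose by 0.78, the cargo receptor gene LMAN1 by 0.65 and the lectin gene ERLEC1 by 0.51. The mannosidase-like gene EDEM3 fell by 0.91, the sorting lectin gene LMAN2 by 0.83 and CALR, which encodes the chaperone calreticulin, by 0.62, from 586 ± 18 to 382 ± 4 FPKM (SD, n = 3).

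Lists of the later steps were small and mixed, and are read beside the 34.7% called higher and 26.2% called lower among all tested genes. Both tested genes for other Golgi branching enzymes were called lower, MGAT5B at −0.26 and MGAT4B at −0.16, while MGAT3, MGAT4A and MGAT4C were below the filter. Of 10 tested genes listed under galactose and sialic acid capping, 2 were called higher (B4GALT3, log2 0.25, and B4GALT5, 0.16) and 5 lower. The galactosyltransferase gene B4GALT6 fell from 3.78 ± 0.75 to 1.31 ± 0.14 FPKM (SD, n = 3; log2 −1.45, limma adjusted p = 0.000116), B4GALT2 fell by 0.72 and B3GNT2, which builds polylactosamine, by 0.59. Of 13 genes for glycan breakdown, 3 were called higher (NEU1, log2 0.74, MAN2B1, 0.60, and HEXA, 0.24) and 3 lower (MAN2B2, −0.42, FUCA1, −0.42, and GLB1, −0.23). Of 3 tested galectins, which bind branched glycans, LGALS8 rose by 0.35 and LGALS3 by 0.27, whereas LGALS1 fell by 0.46.

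**Figure D3:**
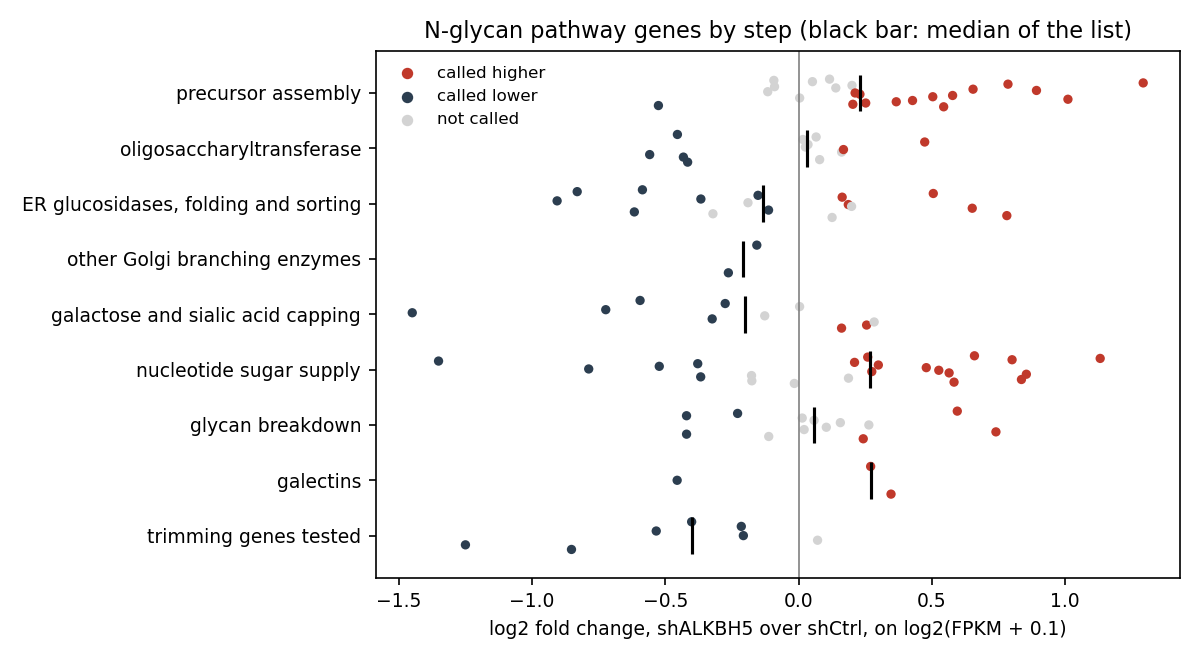
Log2 fold change of each tested gene in the 8 pathway lists and of the 7 trimming genes whose group means both reached the filter (bottom row), coloured by the limma call, with a black bar at each median. Precursor assembly has 14 red points of 23 and the trimming genes 6 dark points of 7, beside 34.7% called higher and 26.2% called lower among all tested genes, and the difference between the lists was not tested.

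The authors' peak caller gave each m6A peak a fold enrichment, IP over input, in a single list for each group, so peak values have no replicate check. The 10 genes held 27 of 46039 peaks in the shALKBH5 list and 26 of 44304 in the shCtrl list. Each gene had at least 1 peak in both lists, as did 82.6% of all tested genes. In the shALKBH5 list 11 of these peaks were annotated to the 3′ UTR, 10 to the 5′ UTR, 4 to coding exons and 2 to introns, and in the shCtrl list 11, 13, 1 and 1. Peak spans include introns, which makes some of them far longer than the RNA they cover.

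MAN1A1 (minus strand, chr6:119177205-119349761) carried a single peak in each list, annotated to the 5′ UTR and spanning 47563 bases in shALKBH5 cells and 42248 bases in shCtrl cells, introns included. Its fold enrichment was 18.4 in the shALKBH5 list and 10.2 in the shCtrl list, while its log10 p was −4.25 and −10.4. The score was thus weaker in the shALKBH5 list, where the input level of MAN1A1 was 0.0779 FPKM. That was not particular to this peak, since scores were weaker there for most matched peaks of the 10 genes. The MGAT5 3′ UTR peak, with enrichments of 13.9 and 14.0, had a log10 p of −519 against −1090. Only the MAN1B1 peak with enrichments of 3.42 and 2.50 went the other way (−49.1 against −34.3). The reason was not tested. Of 8811 genes with a mean of 0.01 to 0.2 FPKM in shALKBH5 cells, 40.3% had a peak in the shALKBH5 list.

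MAN1A2 and MAN1C1 had peaks at both ends, and MAN1B1 had peaks near its 3′ end only. The 5′ UTR peak of MAN1A2 had an enrichment of 46.5 in the shALKBH5 list and 8.64 in the shCtrl list, a ratio above those of 99.2% of 30894 pairs of peaks matched between the lists by an overlap of at least 1 base. The log10 p of this peak was −82.6 against −182, weaker in the shALKBH5 list as for most matched peaks of the 10 genes. The 3′ UTR peak of MAN1A2, with enrichments of 7.35 and 7.81, also had the weaker score there (−33.5 against −99.6). MAN1C1 had a 5′ UTR peak of 13.5 and 14.0 and a 3′ UTR peak of 8.57 and 7.24, but the shALKBH5 spans were far wider, 36775 against 361 bases at the 5′ end. Its 3′ UTR peaks overlapped by 91 bases, and the one in the shALKBH5 list, with a log10 FDR of −0.847, did not pass the stricter peak threshold (fold of 2, FDR of 0.01). The 3′ UTR peak of MAN1B1 had 5.95 and 7.24, and the peak just before it 3.42 and 2.50. No replicate sets an error on these differences.

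The class II genes carried few peaks. MAN2A1 had 1 peak in each list and they did not overlap, a 5′ UTR peak of 3.83 in shCtrl cells and a 3′ UTR peak of 2.14 in shALKBH5 cells. Neither passed the stricter peak threshold (log10 FDR of −1.31 and −1.11), so they do not show a shift between the ends. Over all genes, 80.4% of shCtrl peaks and 77.4% of shALKBH5 peaks overlapped a peak of the other list. MAN2A2 had 1 matched 3′ UTR peak of 600 bases in both lists, with enrichments of 3.08 and 2.72. It also had a 3′ UTR peak of 23.3 at the end of the gene in the shALKBH5 list alone and one of 1.63 in the shCtrl list alone.

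**Figure D4:**
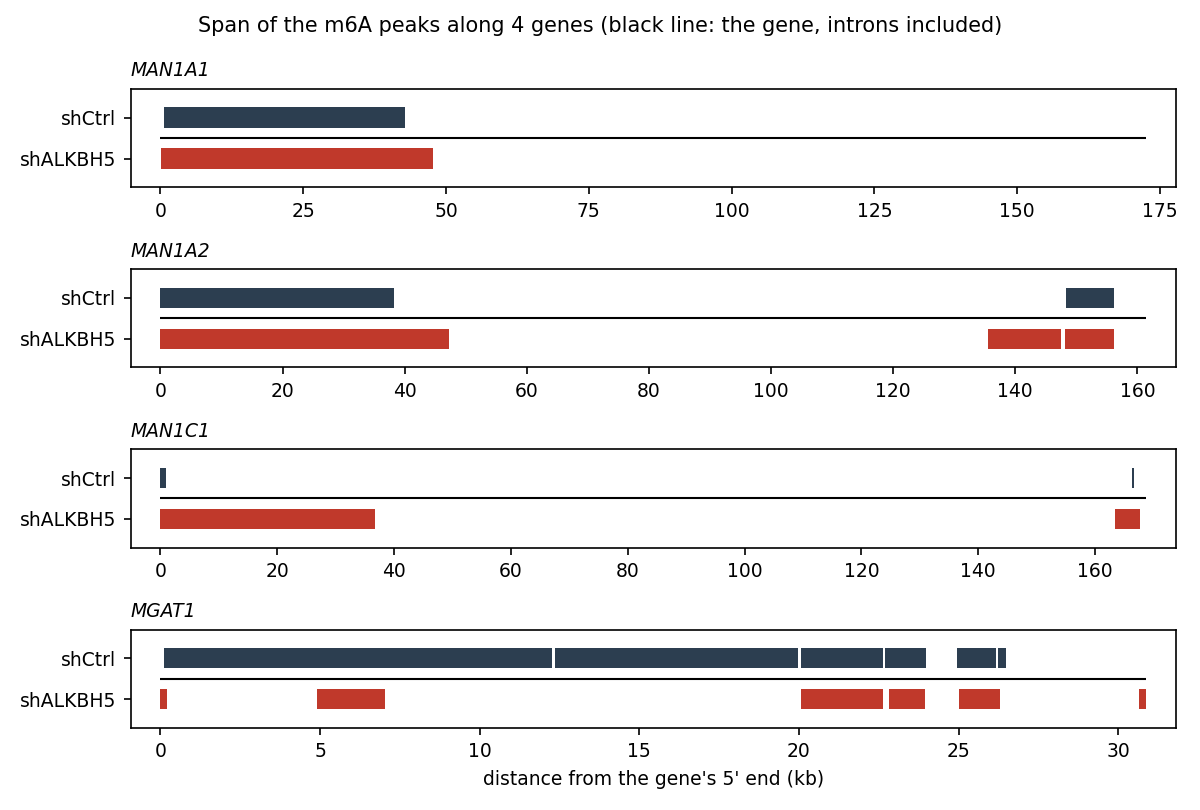
Span of each m6A peak along MAN1A1, MAN1A2, MAN1C1 and MGAT1, as distance from the 5′ end of the gene in kb, for the shCtrl list (dark, above) and the shALKBH5 list (red, below). MAN1A1 has 1 peak per list at its 5′ end, and MAN1A2 and MAN1C1 have peaks at both ends.

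Among the transferases, MGAT1 held the peak with the highest enrichment of all 10 genes. MGAT1 had 6 peaks in each list, among them a 5′ UTR peak with enrichments of 252 in shALKBH5 and 71.8 in shCtrl cells over spans of 2152 and 12139 bases, and a 3′ UTR peak with 16.2 and 33.8. The 5′ UTR pair fell short of a reciprocal overlap of 50%, and its log10 p was weaker in shALKBH5 (−272 against −345). The peak in its coding exon had 5.02 and 5.52. MGAT5, the transferase that fell most, had a 3′ UTR peak of the same span in both lists with enrichments of 13.9 and 14.0. MGAT2, which was not called, had a 3′ UTR peak of 8.13 and 10.1 and a 5′ UTR peak of 3.97 and 3.74. FUT8 had a 3′ UTR peak of 9.06 and 7.67 and a 5′ UTR peak of 9.49 and 12.4.

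Besides the MAN1A1 peak, 19 peaks of the other genes were matched between the lists, of which 7 had the higher enrichment in shALKBH5 and 12 the lower. Over all genes 45.9% of 30894 matched pairs were higher in shALKBH5 and 53.6% lower. The median log2 ratio was −0.08 for the 19 pairs and −0.05 for all pairs, whose middle 90% ran from −1.38 to 1.36. The authors' table of differential peaks lists MAN1A1, which was selected on it, and 4 of the 9 other genes (MAN1B1, MGAT1, MGAT5 and FUT8), beside 32.7% of all tested genes. Only the positions of that table were used.

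**Figure D5:**
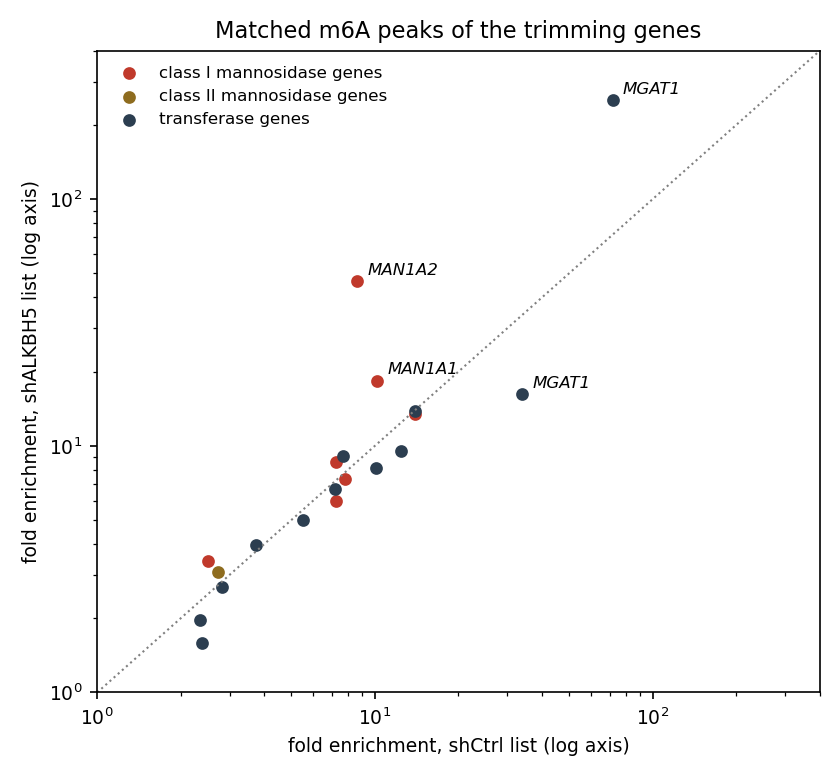
Fold enrichment of the 20 matched peaks in the shCtrl list (horizontal, log axis) and the shALKBH5 list (vertical, log axis), coloured by enzyme class, with a dotted line of equality. The 5′ UTR peaks of MGAT1 (252 against 71.8), MAN1A2 (46.5 against 8.64) and MAN1A1 (18.4 against 10.2) lie above the line and the 3′ UTR peak of MGAT1 (16.2 against 33.8) below it. The MGAT1 5′ UTR pair has spans of 2152 bases in shALKBH5 and 12139 in shCtrl, short of a reciprocal overlap of 50%.

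RefSeq promoter windows (GRCh38.p14), from 250 bases before to 50 bases after a transcript start, were at hand for 9 of the 10 genes, MAN1A2 excepted. The start was the first base of the gene as deposited for MAN1A1, MAN1B1, MGAT2 and FUT8, and for the other 5 it was the nearest RefSeq start, 36 to 677 bases away. CCAAT, searched on both strands, was found in 5 of the 9 windows (2 of the 4 with the deposited first base) and in 34.6% of 35116 windows of the same length. The GC box GGGCGG was found in 6 of 9 (3 of those 4) and 45.0% of all windows, and TATAAA in 0 of 9 and 11.5%. The 25 bases around the CCAAT match are shown for the gene with the largest difference in expression on the log2 scale, MAN1A1 (chr6:119349825-119349849, minus strand, 78 bases before the first base), and for the gene that was not called, MGAT2 (chr14:49620671-49620695, plus strand, 118 bases before it). Capitals mark the match, which reads ATTGG where it lies on the opposite strand.
MAN1A1: gcggcgcgtgATTGGcccggccgcg
MGAT2: gtactgcaaaCCAATaggcagccgg
The match was thus present in both, in opposite orientations, and is a description of letters, not of a site in use.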

How the data were processed

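Input RNA-Seq and m6A immunoprecipitation (MeRIP-Seq) data were read for 2 groups of A375 cells, grouped by their titles, with 3 input and 3 IP libraries each. The authors deposited expression as FPKM per input library. Peaks came from the authors in a single list for each group, giving every peak a fold enrichment (IP over input). The log10 p and log10 FDR of a peak, also deposited, were handled as a score, since many are lower than log values usually go. Aligner, counter, peak caller and the pooling of replicates are not given in the sources used here. The submitters' processing notes name the build mm10, whereas the genes are human, and spans of 15678 of 15678 genes with a unique symbol overlapped those of GRCh38.p14 in RefSeq (75.0% shared an edge), so coordinates are given as on GRCh38. Peak starts, 0-based as deposited, were shifted by 1 base. Columns with the authors' fold changes, p-values and q-values between groups (expression and differential peaks) were not used.

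FPKM showed no steps of whole reads (the commonest ratio between libraries made up 0.267% and 0.270% of low values), so the depth is unknown, no count test was possible, and the number of libraries limits the precision. Identical values made up at most 0.123% of the tested genes in any pair of libraries. The study's methods name a model for counts, so instead log2(FPKM + 0.1) was tested with limma 3.58.1 in R 4.3.3 (eBayes with trend, two-sided, Benjamini-Hochberg adjustment over the 12985 genes whose mean in the 6 input libraries was 0.5 FPKM or more, called at 0.05). The fit was tested on simulated data. Tables and plots were made in Python 3.11.15 with pandas 2.3.3, numpy 2.4.6, matplotlib 3.10.9 and scipy 1.17.1. Peaks were matched by an overlap of at least 1 base on the same strand.

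The genes named are ALKBH5, the 10 trimming genes, the 5 tested genes nearest to MAN1A1 (1 of them is not reported here), and from each pathway list up to 3 genes called higher and 3 called lower with the largest change, provided the higher group averaged 1 FPKM or more. Genes and lists were chosen with earlier results of these data known. Alternatives were pseudocounts of 1 and 0.01, no filter and a filter of 1 FPKM, rescaling by median ratios, a replicate block, no trend, and leaving out each library; for peaks, a fold of at least 2 with an FDR of at most 0.01, and a reciprocal overlap of 50%.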

Additional observations from a re-analysis of the deposited data

How the results depend on the processing

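Of 266 values recomputed under another setting, 1 reversed, 4 lost a call and 2 values of MAN1A1 moved by more than its replicate spread. The other 259 kept their direction and side of the threshold or, for counts, stayed within 1.5 times, which still lets the pathway split turn on rescaling (41 higher and 28 lower to 28 and 34). Log2 differences of low genes depend on the pseudocount. With a pseudocount of 1 that of MAN1A2 was −0.81 and that of MAN2A1 −0.45. The difference of MAN1A1 on the log2 scale was −3.66 with a pseudocount of 0.01 and −0.96 with 1, which follows from its low level, and −2.83 to −2.61 when 1 library was left out. It falls out under the filter of 1 FPKM. The difference of MGAT2 became −0.0038 after rescaling by median ratios (adjusted p = 0.961). Of the 7 genes whose group means both reached the filter, 6 were called lower in every fit on all 6 libraries and 4 to 6 when 1 library was left out, with 4 without shALKBH5 replicate 2 (3010 of all 12985 tested genes were called lower in that fit). The number called higher was 0 in each of these fits. MGAT1 lost its call without shALKBH5 replicate 1 (−0.20) or 2 (−0.20), and FUT8 without shALKBH5 replicate 2 (−0.36) or shCtrl replicate 3 (−0.38).

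Libraries with the same number did not deviate together (correlations of 0.018, −0.046 and 0.059), and 1 of 3 numbers matched best with its own, so the numbers were not taken to pair the libraries. With a replicate block 6 of the 7 genes were called lower, and over all genes 4142 were called higher and 3129 lower, beside 4509 and 3408 without it.

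Under the stricter peak threshold (fold of 2 or more, FDR of 0.01 or less), 19 and 22 peaks of the 10 genes were left in the shALKBH5 and shCtrl lists and 10 of 17 matched pairs were lower in shALKBH5; with a reciprocal overlap of 50%, 9 of 15 were. Depth is unknown, so values near 0.1 FPKM have no counting interval, and peak enrichments have no replicate error.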
